A study of Mus musculus with 28 samples.

Results

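The question here was whether the loss of JMJD3 had the same effect on gene expression in induced regulatory T cells (iTreg) as in non-pathogenic Th17 cells (Th17n), both without drug. The measure was a difference of differences for every gene, the KO minus WT difference in iTreg minus the KO minus WT difference in Th17n, on the log2 scale. It used 14 of the 28 libraries, and every gene of the tables entered. The 14 libraries were 3 iTreg KO, 4 iTreg WT, 3 Th17n KO and 4 Th17n WT. KO animals were JMJD3fl/fl CD4cre on C57BL/6, and the comparison animals were WT C57BL/6. Naive CD4 T cells of the spleen were sorted and cultured on plates coated with antibodies to CD3 and CD28 (1 µg/ml of each), and live cells were harvested at 68 h. The iTreg cultures received TGF-beta1 at 2 ng/ml, and the Th17n cultures received the same dose together with IL-6 at 25 ng/ml. None of the 14 received DFMO, an inhibitor of polyamine synthesis that was added at 100 µM to the other 14. Each animal (3 KO and 4 WT) gave 1 library of each lineage.

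JMJD3, encoded by Kdm6b, removes methyl groups from lysine 27 of histone H3, a mark that Polycomb complexes place on silent genes. CD4cre acts during thymic development, so the gene is deleted in T cells before they are put in culture, and the CD8 lineage loses it too. TGF-beta directs activated naive CD4 cells to express Foxp3, the transcription factor of regulatory T cells, whereas TGF-beta with IL-6 leads through STAT3 to IL-17.

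The lineages had separated in both genotypes. Foxp3 stood at 259, 343 and 314 CPM (the count scaled to library size, with TMM factors) in the iTreg KO libraries and at 216, 339, 236 and 335 CPM in the iTreg WT libraries. It stood at 8.25, 8.36 and 3.78 CPM in Th17n KO and at 14.7, 6.77, 10.2 and 6.92 CPM in Th17n WT. Every iTreg library was therefore far above every Th17n library. Along the first principal component of the 14 libraries, with 58.5% of the variance, the lineages separated, and along the second, with 8.74%, KO libraries (10.7 to 25.0) separated from WT libraries (-22.4 to -4.84). Library totals were 2312481 to 2911716 estimated counts in iTreg KO, 2792847 to 4753768 in iTreg WT, 2226914 to 4143568 in Th17n KO and 4561014 to 4759290 in Th17n WT. The 8 CD4 T cell markers found, of 10 listed, summed to 2964 to 4298 CPM across the 14 libraries. Of the NK cell list, 8 of 8 were found and its sum was 72.6 to 78.6 CPM in iTreg KO, 129 to 488 in iTreg WT, 5.97 to 12.8 in Th17n KO and 6.09 to 26.6 in Th17n WT. In iTreg nearly all of that sum was Nkg7, a cytotoxic granule gene that T cells also use. In Th17n Nkg7 was 1.99 to 6.55 CPM in KO and 2.93 to 17.9 CPM in WT, and Klre1 and Prf1 added to the sum. Across both lineages Ncr1, Klrb1c, Klra8 and Gzma were at 0 in at least 12 of the 14 libraries. The B cell list summed to 14.1 to 17.7 CPM in iTreg KO, 6.84 to 15.3 in iTreg WT, 3.98 to 4.79 in Th17n KO and 6.32 to 7.57 in Th17n WT. In these bulk samples fewer cells of a type and less RNA per cell cannot be told apart.

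The iTreg WT libraries did not form 1 tight group. Gzmb, the cytotoxic protease granzyme B, stood at 340, 68.6, 245 and 112 CPM in WT animals 1 to 4, and Nkg7 at 411, 128, 484 and 198 CPM. Animals 1 and 3 were thus high in both genes, and animals 2 and 4 lower. The labels name no batch, and what sets these animals apart was not tested. Some genes below, among them Ly6a, Ctsw, Il12rb2, Il1rn, Nrp1, Entpd1, Irgm1 and Iigp1, also differ between these pairs of animals in a lineage. In iTreg WT, Nrp1, Irgm1 and Iigp1 were higher in animals 2 and 4, the reverse of Gzmb.

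Kdm6b itself (GRCm38 chromosome 11, 69398508 to 69413675, minus strand) did not show a lineage-dependent difference. It stood at 31.1, 33.3 and 29.1 CPM in iTreg KO and at 38.0, 48.8, 45 and 41.5 CPM in iTreg WT. It stood at 30.3, 28.6 and 43.3 CPM in Th17n KO and at 33.5, 43.1, 51.1 and 60.6 CPM in Th17n WT. The groups overlapped in Th17n and not in iTreg. The difference of differences was -0.04 ± 0.28 log2 (standard error; 95% interval -0.62 to 0.54; edgeR quasi-likelihood test, adjusted p = 0.995). Gene-level values include exons outside the floxed part, so they do not check the deletion.

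Across the 10985 genes tested, 3 had a genotype difference that depended on the lineage: Ly6a, Sgk1 and Inhba, each lower in KO than in WT in iTreg and without a called difference in Th17n. That is 0.0273% of the genes at an adjusted p under 0.05, with 0 in the positive direction (0%) and 3 in the negative (0.0273%). At an unadjusted p under 0.05 there were 674 genes (6.14%), 344 with a positive (3.13%) and 330 with a negative value (3%). The median over all genes was 0.0023 log2 with a median standard error of 0.259, against 0.184 and 0.181 for the difference within iTreg and within Th17n, so a gene had to differ more between lineages than within one to be called. With the animal as a block, which uses that each animal gave both lineages, 8 genes were called, all negative: the same 3 and Aqp9, Ppm1j, Ly6c1, Gzmb and Il12rb2. When the block was fitted on the 14 untreated libraries alone, 3 genes were called, Ly6a, Gzmb and Il12rb2, and Sgk1 and Inhba were not (edgeR adjusted p = 0.0612 each). Leaving out 1 library changed the edgeR count to 0 without iTreg KO animal 3 (622 at an unadjusted p under 0.05), to 1 without iTreg KO animal 1, to 5 (1 positive, 4 negative) without Th17n KO animal 2 and to 8 without iTreg WT animal 2.

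Ly6a (chromosome 15, 74994877 to 74998031, minus strand) encodes Sca-1, a surface protein of activated T cells and stem cells that interferons induce. It stood at 23.5, 7.81 and 13.7 CPM in iTreg KO and at 487, 185, 502 and 183 CPM in iTreg WT. In Th17n it stood at 1079, 1318 and 1222 CPM in KO and at 1231, 1055, 1254 and 1029 CPM in WT. The iTreg groups were far apart and the Th17n groups overlapped. The KO minus WT difference was -4.48 ± 0.59 log2 in iTreg (edgeR adjusted p = 1.33e-05) and 0.08 ± 0.42 in Th17n (adjusted p = 0.965), and the difference between them was -4.56 ± 0.71 (95% interval -6.02 to -3.10; adjusted p = 0.00579; KO n = 3, WT n = 4 in each lineage). Within an animal, iTreg lay below Th17n by log2 differences of -5.49, -7.30 and -6.42 in KO animals and -1.34, -2.51, -1.32 and -2.49 in WT animals. WT animals 1 and 3 had the higher iTreg levels, along the same line as Gzmb, and every WT value was above every KO value. The call was lost without iTreg KO animal 3 (-4.48, adjusted p = 0.0727).

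Sgk1 (chromosome 10, 21882184 to 21999903, plus strand) encodes a salt- and growth-factor-regulated kinase that is known to promote expression of the IL-23 receptor in Th17 cells. It stood at 11.6, 28 and 15.7 CPM in iTreg KO and at 39.2, 61.5, 45.3 and 59.9 CPM in iTreg WT. It stood at 77.0, 66.4 and 56.7 CPM in Th17n KO and at 59.9, 61.2, 54.3 and 67.1 CPM in Th17n WT. The iTreg KO libraries were thus the 3 lowest of the 14, and the Th17n groups overlapped. The difference was -1.50 ± 0.21 log2 in iTreg (edgeR adjusted p = 2.49e-05) and 0.13 ± 0.17 in Th17n (adjusted p = 0.791), and the difference between them was -1.63 ± 0.27 (95% interval -2.17 to -1.08; adjusted p = 0.00642). Its call was lost without iTreg KO animal 1 (-1.38, adjusted p = 0.0905) and without iTreg KO animal 3 (-1.52, adjusted p = 0.0727), as well as with the block in the 14 libraries alone (-1.63, adjusted p = 0.0612) and with limma on TPM (-1.46, adjusted p = 0.208).

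Inhba (chromosome 13, 16011851 to 16031621, plus strand) encodes the beta A subunit of activin A, a secreted ligand of the TGF-beta family. It was at 0 counts in all 3 iTreg KO libraries and stood at 6.05, 2.77, 1.58 and 4.18 CPM in iTreg WT. In Th17n it stood at 30.3, 32.2 and 44.1 CPM in KO and at 29.6, 25.5, 28.5 and 28.6 CPM in WT, so in that lineage all KO libraries lay slightly above all WT libraries, without a call (0.36 ± 0.21 log2, adjusted p = 0.433). Over the group, iTreg KO held 0 and iTreg WT 57 counts. Set against a floor of 3 counts over the 3 KO libraries, Inhba was at least 9.87-fold lower in iTreg KO. The fitted difference of differences was -7.13 ± 1.24 log2 (edgeR adjusted p = 0.0141), a value that depends on how a count of 0 is handled and is no bound. The level in iTreg was low, and the call was lost without iTreg KO animal 1 (adjusted p = 0.15), animal 2 (0.0881) or animal 3 (0.148) and without iTreg WT animal 1 (0.0557), with the block in the 14 libraries alone (0.0612) and with limma on TPM (0.168).

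**Figure D1:**
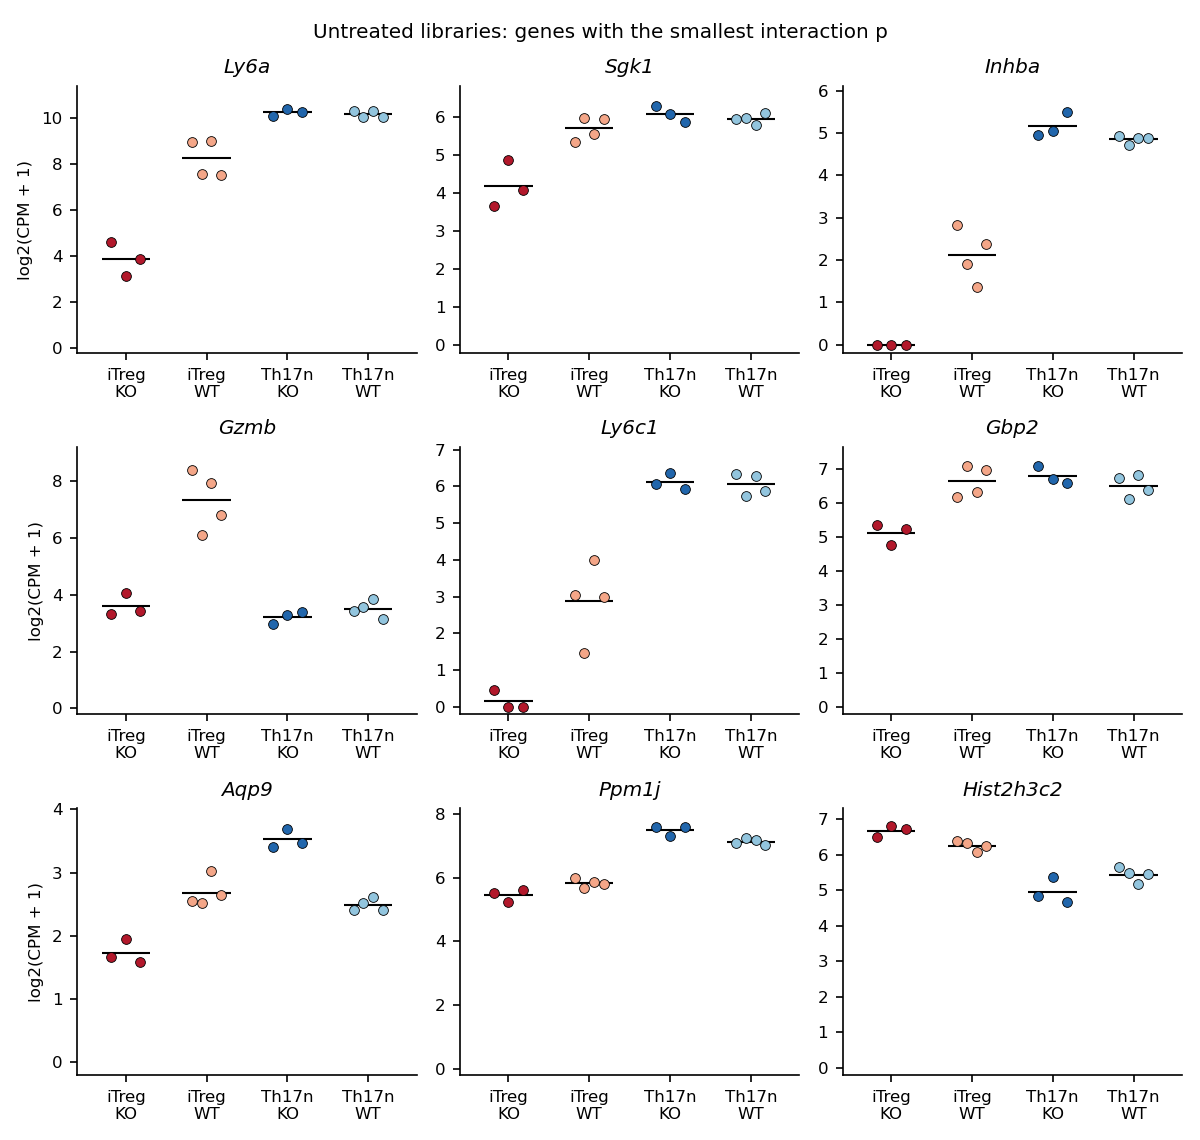
CPM on a log2(CPM + 1) axis in each of the 14 untreated libraries, for the 3 genes with a called lineage-dependent genotype difference (Ly6a, Sgk1, Inhba) and 6 that did not pass; points are libraries and bars are group means. In the top row the iTreg KO points lie below all iTreg WT points while Th17n KO and Th17n WT lie close together.

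The 10 genes next in order of p did not pass, with edgeR adjusted p from 0.0582 to 0.209, and are given as values. Aqp9, a channel for glycerol and water, stood at 2.17, 2.88 and 2.01 CPM in iTreg KO against 4.84, 4.74, 7.10 and 5.23 CPM in iTreg WT, and at 9.63, 11.9 and 10.1 CPM in Th17n KO against 4.33, 4.74, 5.11 and 4.33 CPM in Th17n WT. KO was thus below WT in every iTreg library and above WT in every Th17n library, where it was called (1.18 ± 0.30 log2, adjusted p = 0.0216). The phosphatase gene Ppm1j crossed in the same way, with 45.3, 37.0 and 48.2 CPM in iTreg KO against 62.0, 50.2, 56.8 and 54.4 CPM in iTreg WT, and 194, 157 and 190 CPM in Th17n KO against 134, 150, 145 and 130 CPM in Th17n WT. Its difference of differences was -0.72 ± 0.14 (edgeR adjusted p = 0.0582, or 0.03 with the animal as a block).

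Ly6c1, a neighbour of Ly6a on chromosome 15 and a marker of memory T cells, held 1 count over the 3 iTreg KO libraries against 116 in iTreg WT (7.26, 1.78, 15 and 6.97 CPM). WT over KO was 60.3 with an exact 95% counting interval of 10.6 to 2400. In Th17n it stood at 66.0, 80.8 and 59.7 CPM in KO and 80.4, 52.8, 77.4 and 57.6 CPM in WT. Ly6 genes have close copies, among which estimated counts can be shared out uncertainly. Its difference of differences had an edgeR adjusted p of 0.0911, and of 0.0293 when blocked by animal.

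Gzmb stood at 9.05, 15.6 and 9.70 CPM in iTreg KO, against 340, 68.6, 245 and 112 CPM in iTreg WT. It stood at 6.88, 8.75 and 9.58 CPM in Th17n KO and 9.73, 10.8, 13.6 and 7.79 CPM in Th17n WT, so it was low in Th17n of both genotypes and in iTreg KO. The difference was -4.08 ± 0.55 log2 in iTreg (adjusted p = 2.18e-05), and the difference of differences was -3.79 ± 0.90 (adjusted p = 0.209, or 0.00814 with the animal as a block). Gbp2, an interferon-induced GTPase, stood at 40.5, 26.3 and 37.1 CPM in iTreg KO against 71.9, 135, 79.5 and 125 CPM in iTreg WT, and at 137, 104 and 96.5 CPM in Th17n KO against 106, 69.3, 112 and 82.4 CPM in Th17n WT. Its difference of differences was -1.83 ± 0.43 (edgeR adjusted p = 0.195). The protease gene Ctsw (-1.39 ± 0.33), the lymphocyte GTPase gene Gimap4 (-0.64 ± 0.15) and the PI3K regulatory gene Pik3r6, at 0 in all 3 iTreg KO libraries, completed the negative side. In Ctsw the iTreg KO libraries (36.9 to 49.5 CPM) overlapped WT animals 2 and 4 (39.5 and 39.0 CPM) and lay below animals 1 and 3 (103 and 96.6 CPM). In Th17n, Ctsw stood at 185, 146 and 140 CPM in KO, above every WT library (90, 101, 102 and 88.9 CPM). Its negative value thus also holds a higher level in Th17n KO.

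The other 2 of the 10 were positive. Hist2h3c2, a replication-dependent histone H3 gene, stood at 89.8, 110 and 105 CPM in iTreg KO against 83, 79.1, 66.3 and 74.9 CPM in iTreg WT, and at 27.5, 40.6 and 24.4 CPM in Th17n KO against 49.3, 44.2, 35.1 and 42.6 CPM in Th17n WT. Its difference of differences was 0.91 ± 0.20 (edgeR adjusted p = 0.138), and histone genes have near-identical copies that share reads. Wdr76, a protein of DNA damage response complexes, had 1.01 ± 0.24 and was called lower in KO in Th17n (-0.74 ± 0.18, adjusted p = 0.0156).

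Of the 3 called genes and the 10 next, 12 had within-animal lineage differences that did not overlap between KO and WT animals. Gimap4 was the exception. Of all genes tested, 861 (7.84%) did not overlap. The named genes were picked by p from these same values, so their lack of overlap is no separate support.

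Promoter windows from 250 bases before to 50 after the start are shown for Inhba and Sgk1, which were called. They are also shown for Gbp2 and Gzmb, which were called lower in KO within iTreg. Ly6c1 was called lower there too and is not shown, so what the windows shown have in common depends on this choice. The sequences are from RefSeq, build GRCm38.p6, and the table holds no window for Ly6a. Capitals mark an AP-1 match (TGACTCA) or a STAT match (TTCNNNGAA), searched on both strands with a CRE (TGACGTCA) and a SMAD box (GTCTAGAC). Of the 6 Sgk1 windows, that with the most CG dinucleotides is shown; the other 5 held 3, 8, 4, 6 and 10.
Inhba chr13:16011601-16011900, plus strand: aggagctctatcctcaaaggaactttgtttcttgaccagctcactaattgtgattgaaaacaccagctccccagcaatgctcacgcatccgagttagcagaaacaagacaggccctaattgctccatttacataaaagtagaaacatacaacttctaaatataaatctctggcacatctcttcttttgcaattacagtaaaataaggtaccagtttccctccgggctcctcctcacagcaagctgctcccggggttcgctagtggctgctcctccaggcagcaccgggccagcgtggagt
Sgk1 chr10:21994416-21994715, plus strand: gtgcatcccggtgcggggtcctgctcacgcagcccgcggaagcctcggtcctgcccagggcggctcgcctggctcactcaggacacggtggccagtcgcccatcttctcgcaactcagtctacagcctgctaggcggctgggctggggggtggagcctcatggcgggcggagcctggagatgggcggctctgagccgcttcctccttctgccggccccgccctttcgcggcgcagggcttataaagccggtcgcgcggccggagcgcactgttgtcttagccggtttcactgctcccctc
Gbp2 chr3:142620413-142620712, plus strand: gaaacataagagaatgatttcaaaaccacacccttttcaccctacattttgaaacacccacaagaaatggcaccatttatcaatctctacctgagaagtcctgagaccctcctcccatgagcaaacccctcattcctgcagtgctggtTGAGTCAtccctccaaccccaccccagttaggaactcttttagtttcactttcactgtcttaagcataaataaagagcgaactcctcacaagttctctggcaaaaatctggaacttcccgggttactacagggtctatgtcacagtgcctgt
Gzmb chr14:56262285-56262584, minus strand: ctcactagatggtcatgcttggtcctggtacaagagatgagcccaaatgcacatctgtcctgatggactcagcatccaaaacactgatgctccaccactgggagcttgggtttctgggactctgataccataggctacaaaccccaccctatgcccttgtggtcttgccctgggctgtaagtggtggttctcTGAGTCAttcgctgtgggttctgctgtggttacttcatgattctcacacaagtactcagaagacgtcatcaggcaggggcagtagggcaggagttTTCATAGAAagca
The Sgk1 window shown, picked for its CG content, held 28 CG dinucleotides. Inhba held 7, the median of the 32851 windows of the table, and Gbp2 and Gzmb held 2 each. Gbp2 and Gzmb each held an AP-1 match, which 5.2% of all windows did, and Gzmb also a STAT match, which 8.3% did. Among windows not shown, those of Ly6c1, Ppm1j, Wdr76 and Gimap4 held none of the 4 motifs, and an Aqp9 window held an AP-1 match. The Inhba window and the Sgk1 window shown held none of the 4 motifs; another of the Sgk1 windows held a STAT match. CRE matches were in 1.79% and SMAD boxes in 0.213% of windows. A match describes the letters and is not a site of binding.

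Foxp3 and the Th17 genes Il17a, Il17f and Il23r had no called lineage-dependent genotype difference. Foxp3 had 0.73 ± 0.39 log2 (95% interval -0.07 to 1.52; edgeR adjusted p = 0.849), made of 0.12 ± 0.17 in iTreg and -0.61 ± 0.35 in Th17n, where its level was low. The cytokine gene Il17a and the receptor gene Il23r were at or below 0.988 CPM in every iTreg library, where no fold is given. The cytokine gene Il17f stood at 1.09, 0 and 1.00 CPM in iTreg KO and at 0, 4.74, 0.789 and 11.1 CPM in iTreg WT. In Th17n, Il17f stood at 711, 984 and 872 CPM in KO and at 620, 1024, 690 and 1332 CPM in WT, groups that overlapped. Il17a stood at 58.7, 105 and 90.2 CPM in Th17n KO and at 58.2, 169, 128 and 251 CPM in Th17n WT. Il23r stood at 6.88, 6.76 and 9.33 CPM in Th17n KO, below every Th17n WT library (13, 10.6, 10.2 and 15.1 CPM), without a call (-0.65 ± 0.32 log2, edgeR adjusted p = 0.358). Tested as within-animal lineage differences of KO against WT animals, these 4 genes and Kdm6b gave exact two-sided permutation p-values of 0.143 to 0.971 over 35 splits, adjusted 0.6 to 0.971, where the smallest possible p is 0.0286, so that a single gene of this family could not pass after adjustment. Of the Th17 programme list, 0 of 23 tested members were called in either lineage or between them. Of all genes, 5.3% were called in iTreg, 3.04% in Th17n and 0.0273% between them. At these shares a list of this size may hold none.

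Within iTreg, KO differed from WT in 582 genes (5.3% of those tested), 348 higher (3.17%) and 234 lower (2.13%). Within Th17n it differed in 334 (3.04%), 252 higher (2.29%) and 82 lower (0.746%). The split in iTreg was 207 higher and 222 lower with limma on log2(TPM + 1), and in Th17n 150 and 85. The iTreg count was 293 without iTreg KO animal 1, 284 without iTreg KO animal 3 and 365 without iTreg WT animal 3. The Th17n count was 171, 221 and 126 without Th17n KO animals 1, 2 and 3 and 218 without Th17n WT animal 3. Of the 392 genes called in iTreg and not in Th17n, 3 passed the test between the lineages, where 0.0273% of all genes did. Of the 144 called in Th17n and not in iTreg, 0 did. A call in 1 lineage alone was therefore mostly not shown to be a difference between lineages. At an unadjusted p under 0.05 in that test (edgeR) there were 126 of the 392 and 44 of the 144, against 6.14% of all genes. Both sets were picked from the same values as called in 1 lineage only, which favours a large difference between lineages.

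Both lineages called 190 genes, which is 32.6% of the iTreg list and 56.9% of the Th17n list, 162 higher and 28 lower in KO, with 190 of 190 in the same direction. The arms share animals but no library. Their median difference was 0.94 log2 in iTreg and 0.86 in Th17n for the 162, and -0.68 and -0.62 for the 28. Of the 190, 8 had a difference of differences at an unadjusted p under 0.05, where 6.14% of all genes did. For 158 (83.2%) its 95% interval lay within 1 log2 unit of 0, against 66.2% of all genes. The 190 were picked from the same values as called in both lineages, which favours a small difference between them. These counts are therefore no separate evidence of an equal effect. The farthest apart was Pdlim4, whose differences in the lineages lay 2.23 log2 from each other. The 190 became 101 on TPM, 117 without Th17n KO animal 1 and 96 without Th17n KO animal 3. Transcripts of the 162 had a median GC content of 53.6% and those of the 28 a median of 44.5%, against 49.5% over all genes; after removing a GC trend from each library 167 genes were called in both. The part of base composition was otherwise not tested.

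Members of this shared set, chosen after their values were seen, include Lsm4, a U6 snRNA-binding protein, at 130, 158 and 130 CPM in iTreg KO against 45.8, 61.3, 50.3 and 44.9 CPM in iTreg WT, and at 111, 107 and 111 CPM in Th17n KO against 33.1, 39.9, 54.3 and 49.1 CPM in Th17n WT. Rnf187, a ubiquitin ligase gene, stood at 160, 236 and 158 CPM in iTreg KO against 30.3, 31.4, 29.7 and 16.0 CPM in iTreg WT, and at 156, 160 and 194 CPM in Th17n KO against 29.4, 29.6, 29.8 and 30.5 CPM in Th17n WT. In both lineages and both genes every KO library lay well above every WT library. Rnf187 rose by 2.75 ± 0.30 log2 in iTreg (edgeR adjusted p = 1.51e-06) and by 2.51 ± 0.29 in Th17n (4.05e-06), and the difference between them was 0.24 ± 0.42 (95% interval -0.63 to 1.10). The adiponectin receptor gene Adipor1 (1.02 and 1.08) and the phosphatase subunit gene Ppp4c (1.46 and 1.26) rose likewise in iTreg and Th17n.

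On the lower side, Ctla4, an inhibitory receptor of activated and regulatory T cells, stood at 150, 186 and 151 CPM in iTreg KO against 253, 268, 259 and 273 CPM in iTreg WT, and at 259, 336 and 335 CPM in Th17n KO against 399, 499, 520 and 604 CPM in Th17n WT. It fell by 0.70 log2 in each lineage (edgeR adjusted p = 0.00224 in iTreg and 0.00223 in Th17n), and the difference between them was 0.01 ± 0.19 (95% interval -0.39 to 0.40). Cd200, a surface glycoprotein that restrains myeloid cells, fell by 0.70 and 0.66, and Il1rn, the interleukin-1 receptor antagonist, by 2.03 and 1.78. Il1rn stood at 4.34, 4.52 and 7.03 CPM in iTreg KO against 26.6, 14.8, 35 and 10.8 CPM in iTreg WT, WT animals 1 and 3 again being the high ones.

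**Figure D2:**
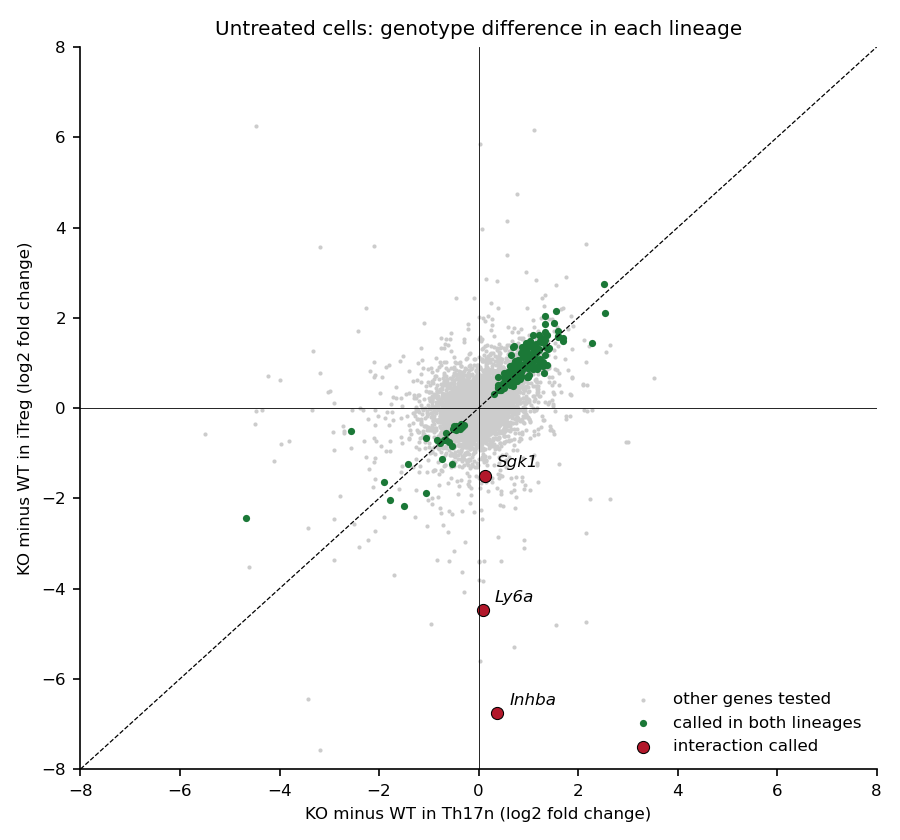
KO minus WT log2 fold change of every tested gene in untreated iTreg (vertical) against untreated Th17n (horizontal), with the line of equal change; green points are the 190 genes called in both lineages and red points the 3 with a called difference between lineages. Most green points lie near the line, Pdlim4 being farthest from it at 2.23 log2, and Ly6a, Sgk1 and Inhba lie below it with values near 0 in Th17n.

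No member of any of the 28 pathway lists was called in the difference of differences. Only 0.0273% of all genes were, a share at which 0 among the 543 tested list entries says little about the lists. The list with the lowest median was the Th1 programme. Of its 14 tested members 12 were negative, against 49.7% of all genes, with a median of -0.63 log2 against 0.0023 over all genes. Without Ifng, at 0 in both KO groups, the median was -0.59 and 11 of 13 were negative. Within iTreg, 1 of the 14 members rose and 5 fell in KO, where 3.17% of all genes rose and 2.13% fell. Within Th17n 0 were called, where 3.04% of all genes were, a share at which a list of this size may hold none. The transcription factor gene Tbx21 (T-bet) stood at 5.07, 4.52 and 8.03 CPM in iTreg KO against 37.8, 34.6, 44.5 and 8.71 CPM in iTreg WT, and fell by 2.42 ± 0.64 log2 (edgeR adjusted p = 0.0229). Il12rb2, the IL-12 receptor chain that marks Th1 cells, stood at 26.8, 25.5 and 23.4 CPM in iTreg KO against 143, 48.2, 112 and 39.7 CPM in iTreg WT, and at 244, 225 and 216 CPM in Th17n KO against 365, 169, 322 and 156 CPM in Th17n WT. In Th17n its KO libraries lay inside the WT range, and WT animals 1 and 3 were the high ones in both lineages. Its difference of differences was -1.62 ± 0.54 (edgeR adjusted p = 0.612, or 3.44e-05 with the animal as a block). Ifng held 0 counts in iTreg KO against 99 in iTreg WT (7.75, 0.395, 16.8 and 0.348 CPM), without a call (edgeR adjusted p = 0.165). Over the group it was at least 17.1-fold lower in KO. WT animals 2 and 4 stood near the floor of 0.381 CPM, so this bound rests on animals 1 and 3. Eomes, Il18r1 and Gzmb fell as well, and the chemokine gene Ccl5 rose, standing at 19.2, 22.6 and 42.5 CPM in iTreg KO against 5.08, 10.7, 3.95 and 9.76 CPM in iTreg WT (1.93 ± 0.36, adjusted p = 0.00102). In iTreg WT the summed NK list, with Nkg7 leading, stood at 417, 129, 488 and 200 CPM. Gzmb, Il12rb2 and Ifng were likewise higher in animals 1 and 3. Tbx21 was low in animal 4 alone, and Eomes did not split this way. Il18r1 was lower in animals 1 and 3 (33.6, 53.8, 44.2 and 53.7 CPM), as was Ccl5. The part of the NK list in the result was not tested.

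Interferon-stimulated genes did not move as 1 block. Of 22 tested, 4 fell and 1 rose in iTreg KO, against 2.13% and 3.17% of all genes, and 0 were called in Th17n, against 3.04% of all genes. The single rise and the absence of calls in Th17n are near those shares. Those that fell, Iigp1 (-3.52), Gbp2 (-1.56), Irgm1 (-1.01) and Igtp (-0.85), are GTPases that interferon gamma is known to induce. In iTreg WT all of these were higher in animals 2 and 4, the reverse of Ifng. Irgm1 stood at 54.7, 103, 54.2 and 101 CPM and Igtp at 369, 496, 379 and 481 CPM in WT animals 1 to 4. In Th17n WT they were higher in animals 1 and 3. Their relation to Ifng was not tested. Ifit1, an effector that type I interferon induces, rose (1.36 ± 0.40, edgeR adjusted p = 0.0445). The median of the list was 0.38 log2 in iTreg, 0.09 in Th17n and 0.28 for the difference of differences. The latter was negative in 9 of 22 members, against 49.7% of all genes. Iigp1 held 1 count in Th17n KO against 66 in Th17n WT (5.62, 1.35, 7.02 and 0.216 CPM), without a call.

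Of 22 tested members of the Treg programme, 3 rose and 3 fell in iTreg KO, against 3.17% and 2.13% of all genes. In Th17n KO 0 rose and 2 fell, against 2.29% and 0.746% of all genes. Ikzf2, which encodes Helios, stood at 14.5, 14 and 15.4 CPM in iTreg KO against 85.7, 41.3, 89.7 and 45.3 CPM in iTreg WT, and at 4.13, 3.98 and 2.27 CPM in Th17n KO against 6.92, 11.7, 11.7 and 7.14 CPM in Th17n WT. It fell in both lineages (-2.16 ± 0.25 and -1.51 ± 0.38, edgeR adjusted p = 3.06e-06 and 0.0214), with a difference between them of -0.65 ± 0.49. Ctla4 fell in both, and Entpd1 (CD39), which degrades extracellular ATP, fell in iTreg (-1.29), at 5.07, 5.76 and 8.36 CPM in KO against 18.4, 14, 19.2 and 11.1 CPM in WT. The semaphorin receptor gene Nrp1 stood at 147, 141 and 135 CPM in iTreg KO against 46, 101, 52.9 and 117 CPM in iTreg WT. Nrp1 (0.84), the cytokine subunit gene Ebi3 (0.75) and Nt5e (CD73), which makes adenosine (0.79), rose in iTreg. The list's median difference of differences was 0.08, with 5 of 22 negative, against 49.7% of all genes.

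**Figure D3:**
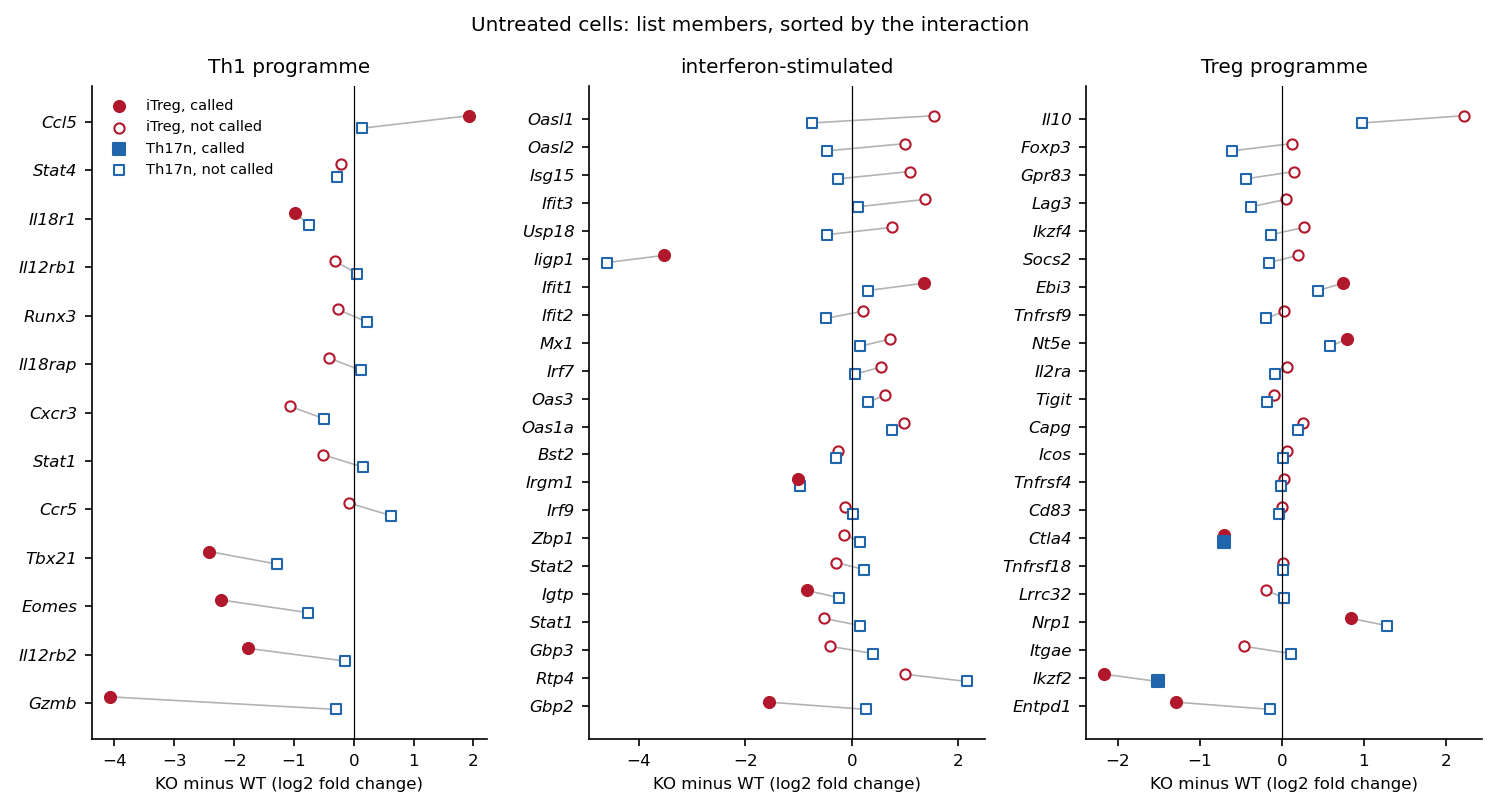
KO minus WT log2 fold change in untreated iTreg (circles) and Th17n (squares) for the tested members of 3 lists (Ifng not drawn), sorted by the difference between lineages; filled symbols passed the test within that lineage. Gzmb, Il12rb2, Eomes and Tbx21 are low in iTreg, and 0 Th1 or interferon-stimulated members passed in Th17n.

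Of 25 immediate early genes tested, 2 rose and 3 fell in iTreg, against 3.17% and 2.13% of all genes, and 3 rose and 5 fell in Th17n, against 2.29% and 0.746%. Most members were not called, and the list medians were 0.07 log2 in iTreg and 0.03 in Th17n. Dusp2, a phosphatase that inactivates MAP kinases, rose by 2.12 log2 in iTreg and 2.54 in Th17n, and Ier2 by 1.48 and 1.24. Klf6, Nr4a3 and Atf3 fell in both, while Nr4a1, Nr4a2 and Dusp6 were called in Th17n alone, without a called difference between lineages. Ribosome biogenesis genes had 5 lower and 1 higher in iTreg (Nop58 -0.50, Rrp9 -0.55; Fbl 0.86) and 1 higher in Th17n (Fbl 1.10). The 1 higher gene in each lineage is near the share of all genes (3.17% and 2.29%), whereas 2.13% of all genes were lower in iTreg. Of the list, 23 of 29 had a negative difference of differences, against 49.7% of all genes, with a median of -0.11. Of 7 tested members of the MHC class II list, 2 rose in iTreg and 1 in Th17n, against 3.17% and 2.29% of all genes. H2-Ob rose in both, by 0.69 log2 in iTreg and 0.66 in Th17n (edgeR adjusted p = 0.0313 and 0.0446), and H2-Ab1 rose in iTreg, at 68.8, 77.3 and 73.3 CPM in KO against 44.5, 36.8, 33.4 and 49.8 CPM in WT (0.84 ± 0.15, edgeR adjusted p = 0.000709). In Th17n, H2-Ab1 stood at 346, 342 and 332 CPM in KO and at 246, 366, 240 and 312 CPM in WT, groups that overlapped. The B cell list, whose cells carry MHC class II, had its highest sums in iTreg KO and its lowest in Th17n KO (3.98 to 4.79 CPM). The part of that list in the MHC class II result was not tested. DNA replication (36 genes) and G2 and M phase (25 genes) lists had 0 called members in either lineage. Of all genes, 5.3% were called in iTreg and 3.04% in Th17n, shares at which lists of these sizes may hold none. In Th17n, 29 of the 36 DNA replication genes were negative, against 51.9% of all genes. At an unadjusted p under 0.05 (edgeR), 8 of the 36 were lower and 0 higher, against 725 lower and 866 higher of all 10985 genes.

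In the 14 DFMO libraries of the same animals, the same difference of differences called 21 genes (0.191%), 11 positive (0.1%) and 10 negative (0.091%), and 46 with the animal as a block. Ly6a was called again. It stood at 1.78, 0.677 and 2.46 CPM in iTreg KO against 191, 24.6, 229 and 31.3 CPM in iTreg WT with DFMO, and at 541, 432 and 603 CPM in Th17n KO against 369, 302, 452 and 278 CPM in Th17n WT (-6.83 ± 0.93, edgeR adjusted p = 0.000425). Sgk1 stood at 114, 123 and 104 CPM in iTreg KO against 99.5, 94.1, 116 and 126 CPM in iTreg WT with DFMO, groups that overlapped, and its value was -0.12 ± 0.22 (adjusted p = 0.987). Inhba was detected in iTreg KO with DFMO, at 5.05, 1.35 and 7.07 CPM, against 7.67, 6.53, 8.42 and 4.52 CPM in iTreg WT (0.06 ± 0.43, adjusted p = 0.996). Gbp2 (-2.75) and Ppm1j (-1.27), not called without DFMO, were called with it.

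Whether the difference of differences itself changed with DFMO was tested as untreated minus DFMO-treated. By edgeR 0 of 10985 genes were called (0%), with 430 at an unadjusted p under 0.05 (3.91%). The smallest p was that of Inhba (2.12e-05, adjusted p = 0.148), followed by Haao, an enzyme of tryptophan breakdown (2.69e-05), while Sgk1 had 0.000153 and Ly6a 0.0992 without adjustment. DESeq2 called 3 genes, Inhba, Sgk1 and Haao. Among the 190 genes called in both lineages without DFMO, the medians with DFMO were 0.23 log2 in iTreg and 0.06 in Th17n for the 162 higher genes, and -0.42 and -0.45 for the 28 lower genes. Of the 190, 166 kept their direction in iTreg with DFMO and 130 in Th17n, and 26 and 22 were called in it. With DFMO, Rnf187 had means of 479 CPM in iTreg KO and 350 in iTreg WT, and 394 and 363 in Th17n. Lsm4 had 172 and 154 CPM in iTreg, and 133 and 136 in Th17n.

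**Figure D4:**
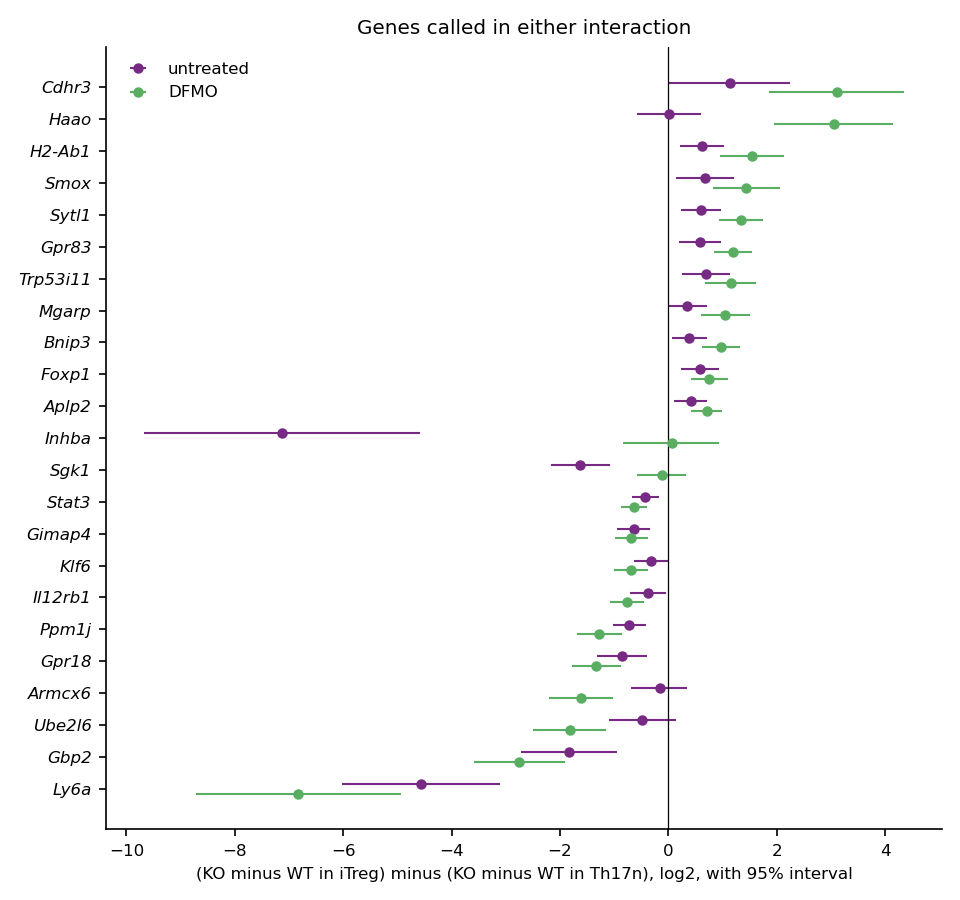
Difference of differences (KO minus WT in iTreg, minus KO minus WT in Th17n; log2, with 95% intervals) for the 23 genes called without or with DFMO; untreated values are drawn above DFMO values. Ly6a is strongly negative in both, whereas Sgk1 and Inhba lie near 0 with DFMO.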

How the data were processed

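Full-length RNA-seq (75 bp paired reads) was measured in 28 libraries of 7 animals. The authors deposited estimated counts and TPM for 20891 genes, made with kallisto on GRCm38 per the submitters' processing notes; which version and annotation were used is not given in the sources used here. Whole numbers (within 0.001) made up 67.2% of the estimated counts, and the deposited TPM summed to 863920 to 886579 per library. All names matched GENCODE M21, which gave positions and GC content.

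Estimated counts were rounded and fitted in edgeR 4.0.16 (R 4.3.3) as 8 group means over 28 libraries with TMM scaling, quasi-likelihood tests and Benjamini-Hochberg adjustment within each comparison. The filter on low counts kept 10985 genes; calls needed an adjusted p under 0.05. A label of each library gives an animal ID, shared by the iTreg and Th17n libraries of an animal, which pairs them; deviations of an animal's 2 untreated libraries correlated at -0.05 to 0.24. Within-animal differences used log2 CPM with a prior count of 2. The steps were tested on simulated data. Alternatives used DESeq2 1.42.0, limma 3.58.1 on log2(TPM + 1), RLE scaling, no filter, the 14 libraries alone, the animal block, thinning to 2226732 counts, and a GC correction and the count of shared genes, the last 2 chosen after seeing the data. Genes at 0 were set against 3 counts over the group; this bound and the 95% intervals of counts cover counting error only.

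Members and lists were chosen with earlier results of these data known. Named genes were 6 fixed ones (1 is not reported here; within-animal p-values were adjusted over all 6), called genes with at least 10 CPM in a group (up to 12 each way), the 10 next by p, and up to 4 called members per list; the shared genes were chosen after seeing values. Cell type lists covered 9 types, and 28 pathway lists were described by counts and medians. Whether counting used strand is not given in the sources used here, so overlapping genes cannot be told apart.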

Additional observations from a re-analysis of the deposited data

Results flagged for a closer look

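Without DFMO, the genotype effect differed between iTreg and Th17n by the interaction test for Ly6a (-4.56 log2), Sgk1 (-1.63) and Inhba (-7.13, a fitted value against a group at 0). With DFMO it differed in the negative direction for Ly6a (-6.83), Gbp2 (-2.75), Ube2l6 (-1.82), Armcx6 (-1.61), Gpr18 (-1.33), Ppm1j (-1.27), Il12rb1 (-0.76), Klf6 (-0.69), Gimap4 (-0.68) and Stat3 (-0.63). It differed in the positive direction for Cdhr3 (3.11), Haao (3.05), H2-Ab1 (1.55), Smox (1.44), Sytl1 (1.35), Gpr83 (1.20), Trp53i11 (1.15), Mgarp (1.05), Bnip3 (0.98), Foxp1 (0.76) and Aplp2 (0.71).

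In the groups of 4 WT libraries, 1 library stood apart from the others in 6 cases of 110 examined. For continuous values chance gives about 1 in 20, but in 3 of the 6 the other libraries were all 0. There any value above 0 stands apart, so the 6 cannot be set against that rate. Rnf187 was 16.0 CPM in iTreg WT animal 4, against 29.7 to 31.4 in the others. Aplp2 was 54.7 CPM in that library, against 67.1 to 69.5. Gpr83 was 78.3 CPM in Th17n WT animal 1, against 61.1 to 63.0. The other 3 were single low values where the rest were 0: Ifng at 1.08 CPM in Th17n WT animal 1, Il17a at 0.988 CPM in iTreg WT animal 2 and Il23r at 0.263 CPM in iTreg WT animal 3.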

How the results depend on the processing

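The count of 3 genes with a lineage-dependent effect without DFMO was 11 (1 positive, 10 negative) by DESeq2, 27 with no filter, 8 with the animal as a replicate block, 8 in the 14 libraries alone and 8 with GC correction and block; it ranged from 0 to 8 when 1 library was left out. With the pairing by animal Ly6a had -4.37, Sgk1 -1.62 and Inhba -7.13, all called. With DFMO the 21 genes became 48, 99, 46 and 50 by DESeq2, no filter, block, and GC correction with block, 12 in the 14 libraries with block, and 10 to 30 with 1 library left out (10 without iTreg KO animal 2, 11 without Th17n KO animal 1). Untreated minus DFMO gave 3 by DESeq2, 11 with no filter, 3 on TPM, 1 after thinning, and 0 to 1 with 1 library left out (1 without untreated or DFMO iTreg KO animal 2 or DFMO Th17n WT animal 1). The iTreg count of 582 ranged from 284 to 614, the Th17n count of 334 from 126 to 337, and the shared count from 96 to 199, with 101 on TPM. The within-animal tests gave 0 calls in each setting, but their smallest possible p could not pass for a single gene, so this says nothing about stability.

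Ly6a kept its sign and its call except without iTreg KO animal 3 (range -5.02 to -4.27). Sgk1 ranged from -2.02 to -1.38 and also lost its call on TPM (-1.46) and in the 14 libraries with block (-1.63). Inhba ranged from -7.35 to -6.74 and lost it on TPM (-1.80) and in the 14 libraries with block (-7.06). Signs turned for genes that were not called: on TPM, Kdm6b (0.14) and Il17a (0.47), and the within-animal gap of Kdm6b (0.14); the gap of Il17a with a prior count of 0.5 (-0.07). With 1 library left out, Kdm6b ranged from -0.18 to 0.21, Il17a from -2.94 to 0.83 and Il23r from -0.88 to 3.70, and with 1 animal left out the gap of Il17a ranged from -0.11 to 0.59 and that of Kdm6b from -0.17 to 0.22 (0.08 without WT animal 1 or 2). In iTreg, Il17a held 0 counts in KO and 5 in WT, all in WT animal 2, and its sign turned without that library. Il23r held 2 counts in iTreg KO, all in animal 2, against 1 in iTreg WT, and turned without iTreg KO animal 2. The Il17a and Il23r ranges are therefore no measure of a fold. The cause of the sign changes was not tested. Depth limits low genes: a group floor of 3 counts is 0.381 CPM in iTreg KO.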

Other observations

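Other genes named from the lists had called differences within 1 lineage and none between lineages. In Th17n KO, Gata3, the Th2 transcription factor gene, stood at 11, 14.3 and 8.82 CPM against 5.62, 5.42, 6.17 and 6.71 CPM in Th17n WT, and rose by 0.89 ± 0.21 log2 (edgeR adjusted p = 0.0145). Tox, an HMG-box factor of exhausted and follicular T cells, stood at 6.88, 6.76 and 6.05 CPM in Th17n KO against 12.3, 13.5, 18.1 and 19.9 CPM in Th17n WT, and fell by 1.29 ± 0.24 (adjusted p = 0.00163), against -0.11 ± 0.17 in iTreg. Tgfb3, the TGF-beta ligand gene linked to Th17 cells, rose in Th17n KO, at 155, 166 and 165 CPM against 67.9, 118, 70.2 and 104 CPM in Th17n WT (0.85 ± 0.20, adjusted p = 0.0165). The difference between lineages was 1.18 ± 0.30 for Tox (adjusted p = 0.271), -0.66 ± 0.25 for Gata3 (0.654) and -1.53 ± 0.57 for Tgfb3 (0.654).

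Cd44, an adhesion receptor of activated T cells, fell in both lineages, by 1.13 log2 in iTreg KO (edgeR adjusted p = 6.93e-05) and 0.74 in Th17n KO (0.0107). Among JmjC demethylase genes, Kdm4b and Kdm5b rose in both lineages: Kdm5b by 0.58 in each, with a difference between lineages of 0.00 ± 0.12, and Kdm4b by 0.74 in iTreg KO and 0.81 in Th17n KO. Plk2, a p53 target, fell by 1.24 in iTreg KO (adjusted p = 1.6e-06) and by 0.54 in Th17n KO (0.0416).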
